A study of Mus musculus with 8 samples.

Results

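Coagulation and plasminogen activation genes were followed through ovulation in mouse cumulus cells, which wrap the oocyte and are shed with it. The set was chosen by gene symbol and holds 7 genes: F3, Procr, Thbd, Plat, Plau, Plaur and Serpine2. The first 6 were found among the 8251 genes that the array measures under a single symbol. They have 7 of its 12488 probe sets, since Thbd has 2. No probe set in the table used here carries the symbol Serpine2. The genes were put together with their time courses on these same arrays already known, so their levels over time are described here and carry no test.

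Tissue factor, encoded by F3, is the membrane receptor that starts clotting by binding factor VII. Thrombin made in this way can be turned around by thrombomodulin (Thbd), and the endothelial protein C receptor (Procr) presents protein C to that complex, which makes an anticoagulant protease. Plasminogen is cut to plasmin, which breaks down fibrin and other matrix, by tissue plasminogen activator (Plat) and urokinase (Plau). Urokinase acts on the cell surface through its receptor (Plaur), and the serpin encoded by Serpine2 inhibits thrombin and both activators. Plasminogen activators are long known from the ovulating follicle, where granulosa cells and the oocyte make them.

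Cumulus cells came from C57Bl/6 females aged 3 to 4 weeks, either wild type (WT) or Ptger2(-/-) (EP2KO), which lack the prostaglandin E2 receptor EP2. All mice were primed with 5 IU of PMSG, a hormone with FSH-like action. Those of 3, 9 and 14 h also received 5 IU of hCG, which acts like LH, 48 h later, and those of 0 h were taken without it. Each combination of genotype and time is 1 array, which makes 8 arrays with no replicate. At 0, 3 and 9 h the complexes were taken from punctured follicles and stripped with capillaries, whereas at 14 h they were collected from the oviduct and treated with hyaluronidase. Time and way of collection therefore cannot be told apart at 14 h. The labels state neither how many animals gave each RNA nor which part of Ptger2 is deleted.

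The values are log2 signals from RMA, a method that summarises the probes of a probe set, so a difference of 1 is a 2-fold change. Array medians lay between 7.79 and 7.89 and the lowest value of any array was 3.25. The number of arrays limits the precision. The Ptger2 probe set read 4.95 to 5.97 on the 4 WT arrays and 4.24 to 4.69 on the 4 EP2KO arrays. The summed linear signal of 9 measured granulosa and cumulus markers was 48130 and 54140 at 0 h and 17060 and 14890 at 14 h. Of the 9, 7 were lower at 14 h than at 0 h (limma, adjusted p under 0.05), where 28.8% of all probe sets passed in either direction. The 3' minus 5' difference of the Gapdh controls, a sign of RNA quality, was 2.87 and 2.82 at 14 h and 0.80 to 1.86 on the other 6 arrays. That of Actb did not set the 14 h arrays apart in the same way, at 1.61 and 1.37 against 0.69 to 1.54. In such bulk samples, fewer cells of a type and less RNA per cell cannot be told apart.

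Promoter sequences are shown for the genes on the array that have an entry in the promoter table, which are F3, Procr and Plaur. They come from RefSeq on the mouse build GRCm38.p6, run from 250 bases before to 50 bases after the start, and are given 5′ to 3′ on the plus strand, which is the gene strand for these 3. Capitals mark the letters TGANTCA, the binding sequence of AP-1. The F3 window is chr3:121723287-121723586, that of Procr is chr2:155750967-155751266 and that of Plaur is chr7:24462233-24462532. Of the 6 genes on the array, 3 have an entry in the promoter table.
F3: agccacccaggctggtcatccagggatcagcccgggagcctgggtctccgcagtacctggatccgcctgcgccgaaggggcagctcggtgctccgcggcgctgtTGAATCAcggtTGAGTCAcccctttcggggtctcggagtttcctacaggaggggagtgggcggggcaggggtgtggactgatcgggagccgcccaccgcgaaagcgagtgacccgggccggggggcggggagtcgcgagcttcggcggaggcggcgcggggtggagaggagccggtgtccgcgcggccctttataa
Procr: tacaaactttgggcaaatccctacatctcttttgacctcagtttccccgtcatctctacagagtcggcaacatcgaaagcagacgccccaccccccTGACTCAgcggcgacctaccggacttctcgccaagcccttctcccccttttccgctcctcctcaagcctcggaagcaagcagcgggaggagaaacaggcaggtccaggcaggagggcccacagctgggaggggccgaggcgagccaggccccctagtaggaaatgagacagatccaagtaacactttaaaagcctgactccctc
Plaur: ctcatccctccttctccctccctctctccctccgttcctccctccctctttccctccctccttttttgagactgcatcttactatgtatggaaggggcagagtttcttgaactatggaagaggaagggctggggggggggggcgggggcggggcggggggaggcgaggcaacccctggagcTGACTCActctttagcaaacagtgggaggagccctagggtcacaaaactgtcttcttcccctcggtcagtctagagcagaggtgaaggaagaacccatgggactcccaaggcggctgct

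TGANTCA, searched on both strands, occurs in 7.81% of the 32851 promoters of the table. In F3 it occurs as TGAATCA at bases -146 to -140 and again as TGAGTCA at -135 to -129, counted from the start as 0. In Procr it occurs once, as TGACTCA, at -154 to -148, and in Plaur once, in the same letters, at -69 to -63. The Sp1 letters GGGCGG, held by 35.7% of all promoters, occur 3 times in F3 and 3 times in Plaur and are not in the Procr window. F3 also has the NF-kB letters GGANTTTCC, held by 1.25% of all promoters, at -112 to -104. It has TATAAA (13.6% of all promoters) on the other strand, at 43 to 48 after the start. Plaur has the EGR letters GCGNGGGCG (5.55% of all promoters) at -109 to -101, overlapping 2 of its 3 Sp1 matches. Of the 10 motifs searched, the other 5 have no match in these 3 windows. They are CRE TGACGTCA (1.79% of all promoters), its core TGACGT (7.51%, counted also inside the full CRE), C/EBP TTNNGNAAT (11.5%), NR5A TCAAGGTCA (0.423%) and GAS TTCNNNGAA (8.3%). The window of Serpine2, a member without values here, was also searched and has Sp1 and EGR letters but not TGANTCA. A match is a match of letters and not a measured site.

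**Figure D1:**
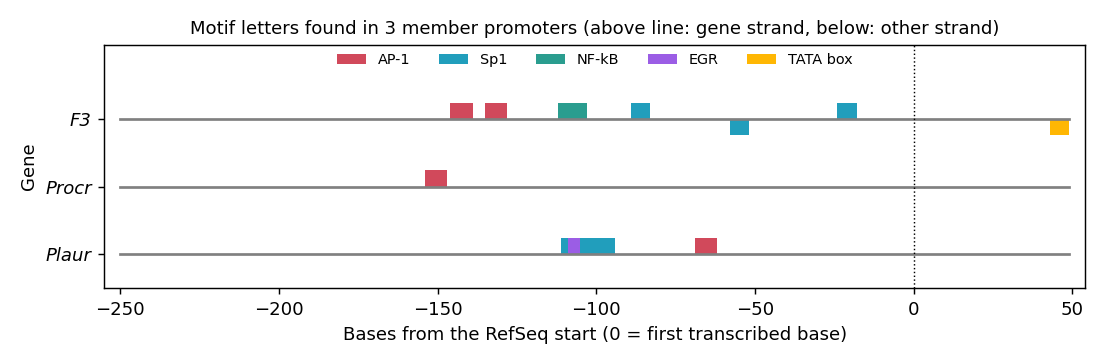
Places of the motif letters in the promoter windows of F3, Procr and Plaur, as bases from the RefSeq start. Boxes above the line are matches on the gene strand and boxes below it on the other strand, with 2 AP-1 matches in F3 and 1 each in Procr and Plaur.

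F3, which starts the clotting cascade, had a sharp peak at 3 h. At 0 h the signal was 6.77 (WT) and 6.85 (EP2KO), and at 3 h it was 11.83 and 10.66. It then read 7.97 and 7.59 at 9 h, and 8.60 and 9.07 in the ovulated cells of 14 h. In both genotypes the order from low to high was 0, 9, 14 and 3 h. The signal thus dropped after 3 h without coming back to that of 0 h, and it was higher at 14 h than at 9 h in both genotypes. In the fit of all arrays with time and genotype as terms, F3 stood 4.44 ± 0.29 above 0 h at 3 h (log2 difference, SE, n = 2 arrays per time), which is 21.6-fold. The difference from 0 h was 0.97 ± 0.29 at 9 h and 2.03 ± 0.29 at 14 h. From 3 to 9 h the signal changed by -3.47 ± 0.29, and from 9 to 14 h by 1.06 ± 0.29. This last step was 0.58 without the EP2KO array of 14 h and 1.54 without the WT array of 14 h.

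Procr, the receptor that concentrates protein C on the cell surface, was high at 3 h like F3 and was still high at 9 h. It read 6.06 in WT and 6.49 in EP2KO at 0 h, 11.61 and 10.06 at 3 h, 10.42 and 10.69 at 9 h, and 8.86 and 8.41 at 14 h. The arrays of 3 and 9 h overlapped, and both times lay above 14 h, which lay above 0 h. The fitted difference from 0 h was 4.56 ± 0.36 at 3 h (23.6-fold), 4.28 ± 0.36 at 9 h and 2.36 ± 0.36 at 14 h. From 3 to 9 h the fitted change was -0.28 ± 0.36 for Procr and, as given above, -3.47 ± 0.29 for F3. WT and EP2KO went different ways over that step in Procr, by -1.19 and 0.63, and the fitted change was -1.10 without the EP2KO array of 3 h and 0.54 without the WT array of 3 h.

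Thbd, the thrombin receptor that works with Procr, did not share these courses. Its probe set with the suffix _at read between 4.22 and 4.92 on the 8 arrays and the one with the suffix _f_at, a mark of probes shared by related sequences, between 4.40 and 5.07, nearer to the lowest value of the arrays than to their medians. Detection calls were not used here, so it is not known whether Thbd was above background. The _f_at probe set was lowest at 3 h in both genotypes. The _at probe set was lower at 3 h than at 0 and 14 h, but its lowest EP2KO value, 4.39, was that of 9 h. The _at probe set read 4.22 in WT and 4.43 in EP2KO at 3 h and 4.70 and 4.92 at 0 h. The _f_at probe set read 4.40 and 4.45 at 3 h and 4.95 and 4.60 at 0 h. The fitted differences at 3 h, -0.49 ± 0.16 and -0.35 ± 0.13, came to -0.24 and -0.10 under quantile normalization, against a median over all probe sets of -0.14 as deposited and -0.05 in that setting. From 9 h on the probe sets parted, with differences from 0 h of -0.25 ± 0.16 and 0.17 ± 0.13 at 9 h and of -0.15 ± 0.16 and 0.24 ± 0.13 at 14 h.

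Plat, tissue plasminogen activator, was high in ovulated cumulus. At 14 h the arrays read 9.81 (WT) and 9.79 (EP2KO), above every earlier array. Before that it read 8.04 and 7.51 at 0 h, 7.39 and 8.34 at 3 h, and 7.96 and 7.91 at 9 h, and these 3 times overlapped. The fitted difference from 0 h was 0.09 ± 0.26 at 3 h, 0.16 ± 0.26 at 9 h and 2.03 ± 0.26 at 14 h (4.07-fold), and the step from 9 to 14 h was 1.87 ± 0.26. That step was 1.85 in WT and 1.88 in EP2KO.

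The 14 h arrays also differed in markers of other cells. Ovgp1, a secreted protein of the oviduct, read 11.13 and 11.46 at 14 h and 7.05 to 7.76 before. Of 7 oviduct epithelium markers 4 were higher at 14 h than at 0 h and none was lower, where 28.8% of all probe sets passed. Their summed linear signal was 4348 and 5554 at 14 h and 1837 to 2140 before. Ovgp1 is 1 of the 7 and gave the largest part of that sum at 14 h. Of 13 leukocyte markers 6 were higher and none lower, with a summed signal of 3699 and 5100 at 14 h and 2158 to 3082 before. Of 7 oocyte markers none was called in either direction, and their summed signal was 1344 and 1415 at 14 h against 1179 to 1619 before. The part of oviduct and leukocyte RNA, of the Gapdh difference and of hyaluronidase in the level of Plat at 14 h was not tested. Nor was it tested for any other gene that stood higher at 14 h, such as F3, Anxa2, S100a10, Anxa5 and Pros1.

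Plau, urokinase, varied little. It read 7.60 in WT and 7.62 in EP2KO at 0 h, 7.18 and 7.08 at 3 h, 7.53 and 7.34 at 9 h, and 7.58 and 7.55 at 14 h. The 3 h arrays were lowest in both genotypes. Those of 0, 9 and 14 h lay between 7.34 and 7.62, and no order is read among them. The fitted difference from 0 h was -0.48 ± 0.12 at 3 h, -0.18 ± 0.12 at 9 h and -0.05 ± 0.12 at 14 h. At 3 h it was -0.41 after median centring of the arrays and -0.35 under quantile normalization.

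Plaur, the urokinase receptor, was higher after hCG than at 0 h on all 6 later arrays. It read 8.07 in WT and 8.08 in EP2KO at 0 h, 8.94 and 8.31 at 3 h, 8.62 and 8.49 at 9 h, and 8.25 and 8.54 at 14 h. The 3 later times overlapped, so they have no order beyond their spread. The fitted difference from 0 h was 0.55 ± 0.18 at 3 h, 0.48 ± 0.18 at 9 h and 0.32 ± 0.18 at 14 h. The value at 3 h rests largely on the WT array. It was 0.21 without that array and 0.89 without the EP2KO array of 3 h. The value at 14 h was 0.05 without the EP2KO array of 14 h and 0.59 without the WT array of 14 h.

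**Figure D2:**
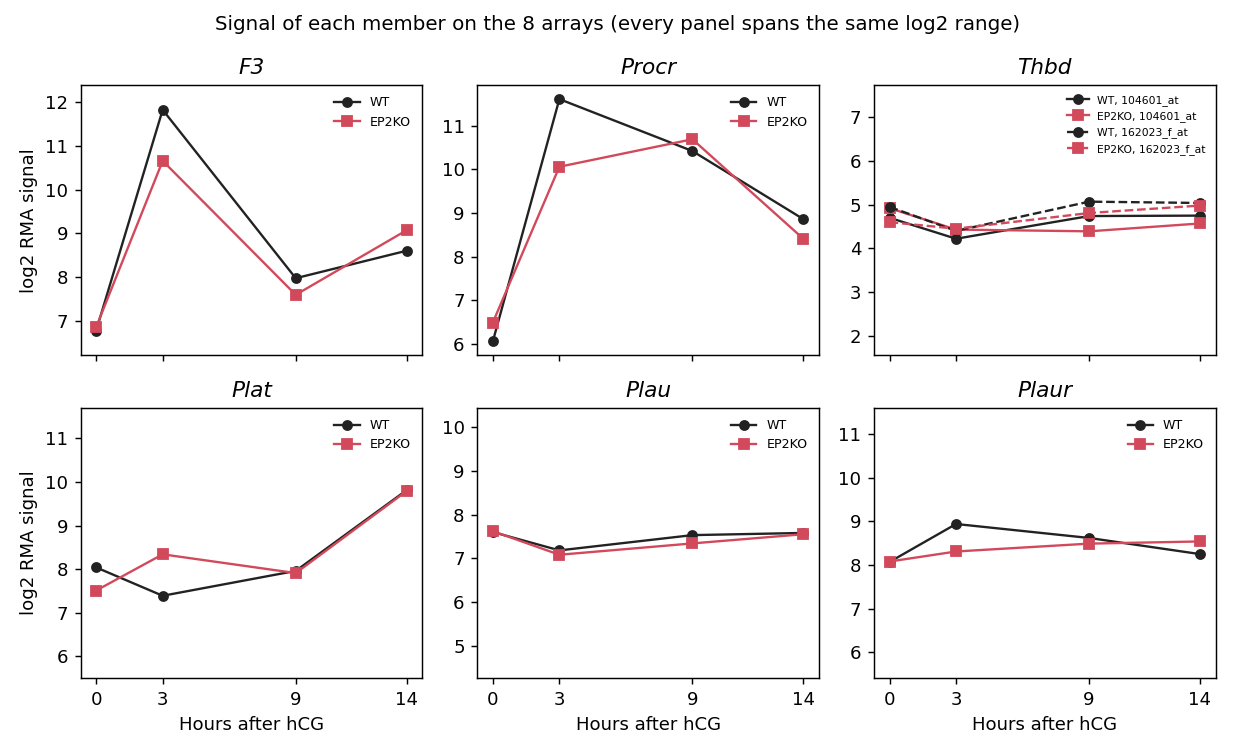
log2 RMA signal of each gene against hours after hCG, with black circles for the WT arrays and red squares for the EP2KO arrays, 1 array per point. Every panel spans the same range of log2 units, and F3 and Procr leave the 0 h level at 3 h while Plat does so at 14 h and Thbd, Plau and Plaur stay within 1 unit of theirs.

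Since the genes were picked by their time courses, the number that pass limma's test over time (adjusted p under 0.05 over 12422 probe sets) is given only for completeness. It was 5 of 7 probe sets at 3 h against 0 h, where 42.8% of all probe sets passed, 2 of 7 at 9 h against 0 h (23% of all) and 3 of 7 at 14 h against 0 h (28.8% of all). Between 3 and 9 h 2 of 7 passed (19.4% of all), and between 9 and 14 h 3 of 7 (20.1% of all). Nothing is read from these counts.

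F3, Procr, Thbd and Plat are also known from endothelium, and markers of that cell type were looked at beside them. Of 11 measured endothelial markers none was higher and 3 were lower at 3 h than at 0 h. Their summed linear signal was 2056 and 2116 at 3 h and 2420 and 2185 at 0 h. At 9 h 2 were higher and 1 was lower, and at 14 h 1 was higher and 1 was lower. The median change of the 11 from 0 h was -0.02 at 9 h and -0.07 at 14 h. Of all probe sets 42.8% passed at 3 h, 23% at 9 h and 28.8% at 14 h. Cdh5, the cadherin of endothelial junctions, read 6.64 and 6.57 at 0 h, 8.47 and 7.79 at 9 h and 8.56 and 7.75 at 14 h. Of 5 measured platelet markers none was called in any time contrast. The part of endothelial RNA in the 9 h level of Procr was not tested.

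The likeness of other genes to F3, Procr and Plat was measured as the root mean square difference over the 8 arrays after each probe set was centred on its own mean. The nearest to F3 were Crem, a transcription factor of cAMP signalling, at 0.60 log2 units, Srxn1, an antioxidant enzyme, at 0.61 and Plk2, a polo-like kinase, at 0.85. In WT Crem read 6.55, 11.24, 7.93 and 7.40 at 0, 3, 9 and 14 h, and in EP2KO 6.20, 9.60, 7.16 and 7.02. The nearest to Procr were Ptx3, which organises the hyaluronan matrix of the cumulus, at 0.36, Star, the cholesterol carrier of mitochondria, at 0.43 and Akr1b8, an aldo-keto reductase, at 0.56. Ptx3 read 7.54, 12.18, 11.68 and 9.51 in WT at the same times and 7.23, 11.43, 11.81 and 8.96 in EP2KO. The nearest to Plat were Bcat1, an enzyme of branched-chain amino acids, at 0.24, Vegfc, a lymphatic growth factor, at 0.25 and Sh3bgr at 0.26. Vegfc read 7.13 in WT and 7.20 in EP2KO at 14 h and 5.05 to 5.59 on the other 6 arrays. For Thbd, Plau and Plaur, which vary little, the 3 nearest genes lay within 0.04 to 0.11 log2 units.

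Other genes of clotting and of the plasminogen system were taken from a list of 50 symbols. Of these 42 were measured, and where a gene had several probe sets the one of highest mean signal was taken. At 3 h 7 of the 42 rose and 13 fell, at 9 h 5 rose and 5 fell, and at 14 h 8 rose and 2 fell, all against 0 h. The median change of the 42 was -0.16, -0.12 and -0.04, beside -0.14, -0.08 and -0.06 over all 12422 probe sets. The share called was thus 20 of 42 at 3 h, beside 42.8% of all probe sets, and 10 of 42 at 9 h and at 14 h, beside 23% and 28.8%. The large changes were few. Anxa2, S100a10, F2r, Anxa5 and Pros1 changed by over 1 log2 unit in at least 1 of these contrasts and the other 37 did not.

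Anxa2 and S100a10 form a heterotetramer on the cell surface that binds plasminogen and tissue plasminogen activator. Anxa2 read 9.87 in WT and 10.20 in EP2KO at 0 h, 11.87 and 11.48 at 3 h, 12.37 and 12.33 at 9 h, and 13.10 and 13.66 at 14 h. It rose by 1.64 ± 0.19 at 3 h (limma, adjusted p = 2.7e-04), 2.32 ± 0.19 at 9 h and 3.35 ± 0.19 at 14 h (limma, adjusted p = 1.3e-06). S100a10 read 9.36 and 9.56 at 0 h, 11.57 and 10.85 at 3 h, 12.51 and 12.30 at 9 h, and 11.59 and 12.24 at 14 h. It rose by 1.75 ± 0.25, 2.95 ± 0.25 and 2.46 ± 0.25 at the 3 times (limma, adjusted p = 3.7e-05 at 9 h). Its other probe set stood at -0.42, 0.11 and 0.06.

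F2r, the thrombin receptor PAR1, read 9.10 in WT and 8.87 in EP2KO at 0 h, 10.48 and 10.19 at 3 h, 11.56 and 11.31 at 9 h, and 10.88 and 10.58 at 14 h. The value of 9 h was the highest in both genotypes. The rise was 1.35 ± 0.11 at 3 h, 2.45 ± 0.11 at 9 h (limma, adjusted p = 5.9e-07) and 1.75 ± 0.11 at 14 h. From 9 to 14 h F2r fell by 0.71 ± 0.11 (limma, adjusted p = 0.00126), a call that ended with the mean of its probe sets (-0.29, adjusted p = 0.0837). The probe sets of F2r disagreed, since the other two stood at -0.43, -0.20 and -0.20 and at 0.01, 0.19 and 0.04 at 3, 9 and 14 h. The receptors F2rl2 and F2rl3 fell at 3 h, by 0.44 ± 0.12 and 0.35 ± 0.11, and were not called at 9 or 14 h. Under quantile normalization neither was called at 3 h (-0.30 and -0.20), nor was F2rl3 after median centring (-0.27).

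Among anticoagulants, Anxa5, which shields the phospholipid surface that clotting needs, rose at each time, by 0.68 ± 0.15, 0.94 ± 0.15 and 1.48 ± 0.15 (limma, adjusted p = 3.9e-05 at 14 h). Under quantile normalization its change at 3 h was 0.35 and not called (limma, adjusted p = 0.0535). Pros1, protein S, the cofactor of activated protein C, was higher at 3 and 14 h. It read 7.63 in WT and 7.59 in EP2KO at 0 h, 8.46 and 8.06 at 3 h, 7.62 and 7.74 at 9 h, and 8.80 and 8.95 at 14 h. It rose by 0.65 ± 0.15 at 3 h (limma, adjusted p = 0.00686) and by 1.27 ± 0.15 at 14 h (limma, adjusted p = 1.2e-04), and fell by 0.58 ± 0.15 from 3 to 9 h, a step not called without the WT array of 3 h (-0.34) or of 9 h (-0.47). Proc, the zymogen that Procr binds, was not called at any time, nor was Tfpi, the inhibitor of tissue factor with factor VII, which read between 6.18 and 6.78. Serpina5, Serpina10, Serpind1 and Tfpi2, all protease inhibitors, fell at 3 h by 0.34 to 0.48. Tfpi2 was not called after median centring (-0.27) or under quantile normalization (-0.12), and ran from -0.46 to -0.22 with 1 array left out. The other probe set of Serpina5 stood at -0.12 and was not called. Under quantile normalization Serpina5 (-0.335) and Serpind1 (-0.25) were not called.

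Among procoagulant genes, Mcfd2, a cargo receptor that helps export factors V and VIII, rose by 0.48 ± 0.14 at 3 h, 0.60 ± 0.14 at 9 h and 0.66 ± 0.14 at 14 h (limma, adjusted p = 0.00495). Its partner Lman1 rose by 0.46 ± 0.14 at 14 h, but its probe sets disagreed, with the other two at -0.74 and 0.62, and the mean of all 3, at 0.11, was not called. F13b, a factor XIII subunit, fell by 0.56 ± 0.12, 0.66 ± 0.12 and 0.61 ± 0.12. Its signal was low, between 4.97 and 5.73 on all arrays, whose medians lay between 7.79 and 7.89. Without detection calls it is not known whether F13b was above background. Vkorc1, which recycles vitamin K, rose at 3 h by 0.53 ± 0.18, and F2, F5 and Kng1 fell by 0.37 to 0.57. F7, the ligand of tissue factor, F10, the fibrinogen chains Fga, Fgb and Fgg, and Vwf were not called against 0 h at any time. In the plasminogen system, Plg, plasminogen itself, was not called with its probe set of highest mean, while its other probe set fell by 0.63 ± 0.15 at 3 h (limma, adjusted p = 0.00834). Plgrkt, a plasminogen receptor, fell by 0.56 ± 0.12 at 14 h (limma, adjusted p = 0.00491) and A2m, a broad protease inhibitor, rose by 0.49 ± 0.12.

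**Figure D3:**
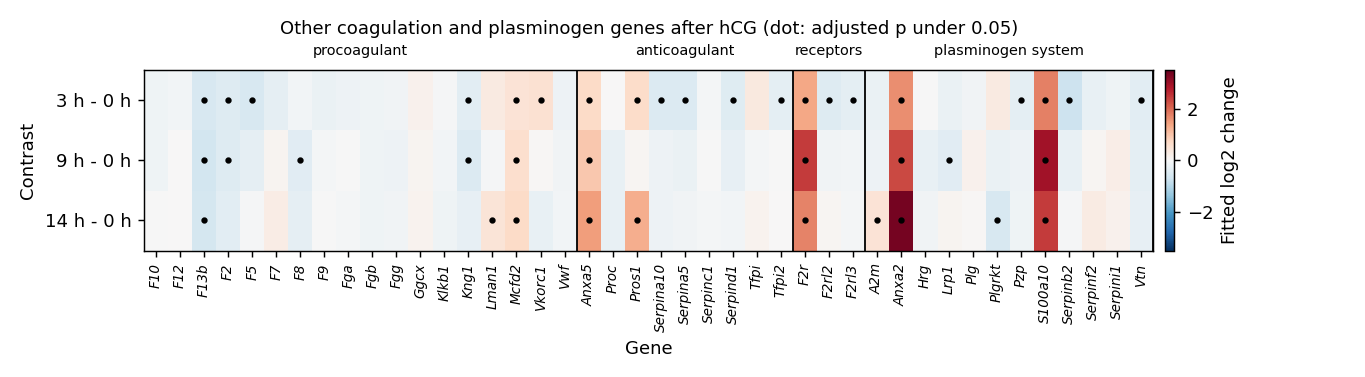
Fitted log2 change against 0 h of the 42 other genes of clotting and of the plasminogen system, in rows for 3, 9 and 14 h and with red for higher and blue for lower. Black dots mark adjusted p under 0.05, which 20, 10 and 10 genes reach, and the deepest red belongs to Anxa2, S100a10 and F2r.

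Many calls of these 42 genes depended on the scaling or on 1 array. Of the 13 genes that fell at 3 h, 7 were still called after median centring of the arrays and 5 under quantile normalization, and the higher share of all calls at 3 h went from 40.7% to 53.1% and 45.6%. Only 2 of the 13 remained in the test when the lowest 40% of probe sets were left out. Of the 7 genes that rose at 3 h, all were still called after median centring, but Anxa5, Mcfd2 and Vkorc1 were not under quantile normalization. Without the WT array of 0 h, or without that of 3 h, only Anxa2, S100a10 and F2r of the 7 were. Without the WT array of 0 h none of the 13 was called and the count of the 42 dropped from 20 to 3, and without the WT array of 3 h it was 5. At 9 h the count of 10 became 5 without the WT array of 0 h or of 9 h, 6 without the EP2KO array of 0 h and 4 without the EP2KO array of 9 h. Mcfd2 was not called at 9 h without the WT array of 0 h (0.38) or either array of 9 h (0.55 and 0.64), nor at 14 h without the WT array of 0 h (0.44), and F13b was not called at 3 h without that array (-0.49) or at 9 h without the EP2KO array of 9 h (-0.61). At 14 h Plgrkt was not called without the EP2KO array of 0 h (-0.46). A2m was not called at 14 h without either array of 0 h (0.51 and 0.46) or the EP2KO array of 14 h (0.42), and Lman1 without either array of 0 h (0.41 and 0.50) or the WT array of 14 h (0.24).

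The comparison of genotypes asks whether the loss of EP2 changes these genes. No member was called as different between EP2KO and WT over the 4 times, where 0% of all 12422 probe sets passed and 642 had an unadjusted p under 0.05. EP2KO minus WT was -0.25 ± 0.21 for F3 and -0.33 ± 0.26 for Procr (limma, adjusted p = 0.995 for both, n = 4 arrays per genotype). It was 0.09 ± 0.19 for Plat, -0.12 ± 0.13 for Plaur, -0.08 ± 0.08 for Plau, and -0.03 ± 0.11 and -0.16 ± 0.09 for the probe sets of Thbd. EP2KO was lower than WT at 2 of 4 times for F3 and for Procr. Of the 42 other genes none was called either. With an SE of this size differences such as these cannot be told from 0, which does not show that the genotypes are alike.

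The differences at single times were not all small. At 3 h EP2KO read 1.17 lower than WT in F3 and 1.55 lower in Procr, which is 2.25-fold and 2.93-fold. At least a 2-fold difference at 3 h was found in 0.467% of all probe sets, 50 lower and 8 higher in EP2KO, beside 0.0403% at 0 h, 0.129% at 9 h and 0.217% at 14 h. Of the 7 member probe sets only those of F3 and Procr reached it at 3 h, and none did at another time. Under quantile normalization the 3 h difference was -0.99 in F3, just short of 2-fold, and -1.36 in Procr. Each is 1 array against 1, with no replicate and no test.

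Measured from 0 h, F3 stood 5.06 higher at 3 h in WT and 3.81 higher in EP2KO, and Procr 5.55 and 3.57. By 9 h the changes from 0 h were 1.20 and 0.74 in F3 and 4.36 and 4.20 in Procr. At 14 h EP2KO read 0.47 above WT in F3 and 0.45 below WT in Procr. Plaur had an EP2KO minus WT difference of -0.63 at 3 h, and Plat one of 0.95, the opposite sign. The summed signal of 4 erythroid markers at 3 h was 5778 in WT and 2796 in EP2KO. Hba-a1, a globin gene, gave the largest part of both sums. Hbb-b2 and Alas2 were also higher in WT at 3 h, at 8.71 against 7.81 and 8.88 against 8.54. Slc4a1 did not share the gap, at 7.23 in WT and 7.24 in EP2KO. The gap between the sums was wider by 9 h, with 12520 (WT) and 2634 (EP2KO), again mostly from Hba-a1. EP2KO minus WT was then -0.38 in F3 and 0.27 in Procr. The part of blood in the 3 h differences was not tested.

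**Figure D4:**
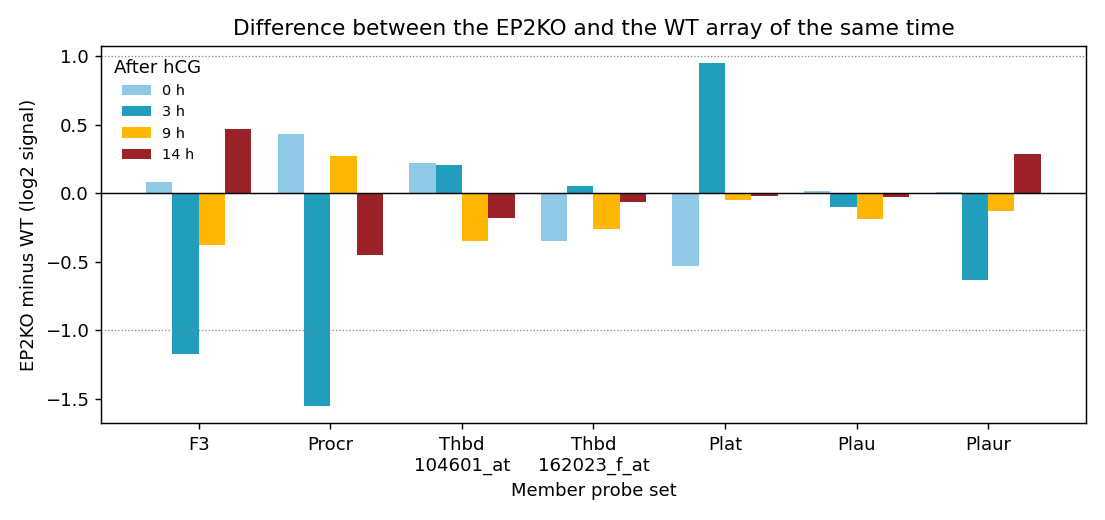
EP2KO minus WT in log2 signal for the 7 member probe sets, with 1 bar for each time after hCG and no error bar because each time has 1 array per genotype. Dotted lines mark a 2-fold difference, which F3 (-1.17) and Procr (-1.55) pass at 3 h, while Plat reaches 0.95 in the other direction.

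Whether EP2KO minus WT after hCG differed from that at 0 h was tested as an interaction, and 0% of all probe sets passed, with 635 at an unadjusted p under 0.05. For Procr that departure was -1.01 ± 0.56 (limma, adjusted p = 0.786), for Plat 0.82 ± 0.38 (limma, adjusted p = 0.786) and for F3 -0.44 ± 0.51 (limma, adjusted p = 0.829). For the departure at 14 h from the earlier times 0.0805% of all probe sets passed and no member did. F3 stood at 0.96 ± 0.38 there (limma, adjusted p = 0.646). Plaur stood at 0.54 ± 0.26 (limma, adjusted p = 0.718). The genotype difference at 3 h also enters these departures. Without the WT array of 3 h they were 0.62 in F3 and 0.35 in Plaur. The summed oviduct and leukocyte signals at 14 h were also higher in EP2KO than in WT, and their part in these departures was not tested. None of the 42 other genes was called in either test.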

How the data were processed

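Cumulus cell RNA from 8 samples was hybridised to Affymetrix mouse arrays, 1 array per genotype and time. The authors deposited log2 signals with 2 decimals, computed by RMA per the submitters' processing notes (version not given in the sources used), and these were used unchanged. Of 12488 probe sets, 66 controls were left out of the tests, and dim probe sets were kept. Symbols came from the platform's annotation, where 10833 tested probe sets have 1 symbol, 396 several and 1193 none. All 7 member probe sets had the same symbol under their gene ID in RefSeq (GRCm38.p6), which also gave the promoters.

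Fits were made with limma 3.58.1 in R 4.3.3. Time contrasts and the genotype difference came from an additive model of time and genotype, fitted with lmFit and eBayes (3 residual degrees of freedom, prior 7.24). The departures added 1 interaction term (2 residual degrees of freedom). P values are two-sided and adjusted by Benjamini-Hochberg over 12422 probe sets, with a threshold of 0.05, below which a gene counts as called, higher or lower. With 1 array per group they measure only the spread among these arrays, technical spread included, and genotype differences in the response to hCG enter the residual. On simulated data with the spread of the real probe sets, 84% of 50 probe sets changed by 1 log2 unit at 3 h were recovered among 12422, and 20% of those changed by 0.5. For a genotype difference of equal size at all 4 times these shares were 96% and 62%. The simulation changed only 50 probe sets of each size. In the data 42.8% of all probe sets passed at 3 h against 0 h, and 0% for genotype. The adjusted threshold depends on that share, so recovery in the real tests may differ from these shares. A difference at 1 time only was not simulated, so the shares do not apply to one like that of F3 and Procr at 3 h. The SEs of the genotype difference in F3 and Procr, 0.21 and 0.26, were also above the median of 0.092 over all probe sets.

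The members, the 50 listed genes and the 8 marker lists were chosen with earlier results of these data known. Named were all members, any listed gene, and the 3 genes nearest in pattern to each member probe set. The alternatives were median centring, quantile normalization, leaving out the lowest 40% of probe sets, an intensity trend in the prior, the mean of a gene's probe sets and each array left out in turn. Leaving out both 14 h arrays was added after the data were seen.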

Additional observations from a re-analysis of the deposited data

Results flagged for a closer look

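Plat and Thbd moved in opposite directions from 0 h in WT and EP2KO, with 1 array per point, so the difference between genotypes was not tested at these single times. Plat went by -0.65 in WT and 0.83 in EP2KO at 3 h, and by -0.08 and 0.40 at 9 h. The Thbd probe set with the suffix _at went by 0.04 in WT and -0.53 in EP2KO at 9 h, and by 0.05 and -0.35 at 14 h. The other Thbd probe set went the same way in both genotypes at these times, by 0.12 and 0.21 at 9 h and 0.09 and 0.38 at 14 h.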

How the results depend on the processing

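No paired analysis was possible because each group has 1 array, numbered 1 throughout, and the labels link no animals. At 3 h the count of other genes called, 20, became 13 under quantile normalization and 9 without the lowest 40% of probe sets, which tests fewer of them, and ran from 3 to 19 with 1 array left out. The count of 10 at 9 h ran from 4 to 10, that of 5 between 3 and 9 h from 1 to 7 (9 under quantile normalization, the cause of which was not tested), and that of 7 between 9 and 14 h from 3 to 7. The counts for the genotype difference and both departures were 0 in every setting run, for members and other genes.

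With 1 array left out, the change at 3 h ran from 3.82 to 5.05 in F3, 3.74 to 5.38 in Procr, -0.49 to 0.67 in Plat, 0.21 to 0.89 in Plaur and -0.49 to -0.21 in the Thbd _f_at probe set. At 9 h it ran from -0.46 to -0.028 in the Thbd _at probe set, 0.035 to 0.30 in the _f_at probe set and -0.25 to -0.10 in Plau, and at 14 h from 0.11 to 0.37 in the _f_at probe set. Plau at 3 h was -0.41 after median centring and -0.35 under quantile normalization, which also gave -0.24 for the Thbd _at probe set and -0.10 for the _f_at probe set at 3 h and 0.32 for the latter at 9 h.

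Uncalled genotype values changed sign in some settings. With 1 array left out, the difference ran from -0.49 to 0.057 in F3, -0.58 to 0.083 in Procr, -0.20 to 0.29 in Plat and -0.25 to 0.057 in Plaur, the other sign appearing without either 3 h array. In the Thbd _at probe set it ran from -0.11 to 0.083, and was 0.027 without 1 or both 14 h arrays. The departure after hCG ran from -0.39 to 0.07 in Plaur, and that at 14 h from -0.47 to 0.27 in Plat, in each case with the other sign without either 3 h array. The departure of Procr at 14 h ran from -0.80 to 0.19, and was 0.19 without either 0 h array and 0.11 without either 9 h array. The departures could not be fitted without an array that alone carries the interaction. Signals near the lowest array values, as in Thbd, limit what can be read.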
